A study of Homo sapiens with 4 samples.

Results

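G0S2 and the enzymes that break down stored neutral lipid were examined in HuH7, a human liver cancer (hepatocellular carcinoma) cell line, after targeting of KDM6B. The 8 genes were chosen by name for their place in this pathway, with earlier results of these data known. They are the lipases PNPLA2, PNPLA3, LIPE, MGLL and LIPA, the lipase co-activator ABHD5, and the lipase inhibitors G0S2 and HILPDA. Every probe set with a single gene symbol among these 8 was used, which gave 17 of the 54613 probe sets in the table, for 8 of 19775 measured genes. The knockout group comprised 2 samples (KO 1 and KO 2) of HuH7 cells with the genotype KDM6B knockout, transfected with a guide vector against KDM6B and a Cas9 vector, selected with G418 and subcloned by limiting dilution. It was set against 2 samples (WT 1 and WT 2) of HuH7 cells with the genotype KDM6B wild-type. Both groups share the growth medium given for the line, RPMI with fetal bovine serum and antibiotics, and no added fatty acid is named for either. The study asks how loss of KDM6B, an enzyme that removes methyl groups from lysine 27 of histone H3, bears on G0S2 in lipotoxicity.

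The labels do not say whether KO 1 and KO 2 are different subclones, whether replicates were grown as separate cultures, or whether the wild-type cells had been transfected or subcloned. All p-values thus rest on the spread among these samples alone, and that spread may be technical. A single guide and no rescue are described, so loss of KDM6B and a difference between subclones cannot be told apart. In RNA from whole cultures, fewer cells with a transcript and less of it per cell cannot be told apart either.

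Neutral lipid is kept in droplets as triacylglycerol and cholesteryl ester. At the droplet surface PNPLA2 (adipose triglyceride lipase) removes a fatty acid from triacylglycerol, LIPE (hormone-sensitive lipase) cleaves the resulting diacylglycerol, and MGLL (monoacylglycerol lipase) releases the last fatty acid and glycerol. ABHD5 binds PNPLA2 and raises its activity, whereas G0S2 and HILPDA bind the same enzyme and inhibit it. PNPLA3 is a relative of PNPLA2 on hepatocyte droplets, and LIPA (lysosomal acid lipase) hydrolyses neutral lipid that reaches the lysosome.

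RefSeq start-site windows of the inhibitor G0S2 and of the lipase it inhibits are shown because these genes encode an interacting pair and read differently on the arrays. Each window runs from 250 bases before to 50 bases after the annotated start, 5′ to 3′ on the plus strand of GRCh38.p14, with CpG dinucleotides in capitals. That of G0S2 is chr1:209675162-209675461 and that of PNPLA2 is chr11:818664-818963.
G0S2: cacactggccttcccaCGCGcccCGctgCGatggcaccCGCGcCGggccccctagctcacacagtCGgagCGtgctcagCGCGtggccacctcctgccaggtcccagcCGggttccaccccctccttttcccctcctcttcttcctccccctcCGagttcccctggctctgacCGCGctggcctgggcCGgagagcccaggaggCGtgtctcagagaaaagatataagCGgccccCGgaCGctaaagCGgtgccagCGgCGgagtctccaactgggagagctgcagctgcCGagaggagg
PNPLA2: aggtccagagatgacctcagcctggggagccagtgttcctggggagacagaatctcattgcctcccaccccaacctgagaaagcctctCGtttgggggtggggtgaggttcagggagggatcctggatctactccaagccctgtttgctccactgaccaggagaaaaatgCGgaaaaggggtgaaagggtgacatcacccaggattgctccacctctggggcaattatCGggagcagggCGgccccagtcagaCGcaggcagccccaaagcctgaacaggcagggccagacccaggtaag
The G0S2 window held 24 CpG and the PNPLA2 window 5, against a median of 14 in 35114 windows of the same length. Of these windows, 66.1% held fewer than that of G0S2 and 29.6% fewer than that of PNPLA2. The ABHD5 windows held 33, 42 and 44 CpG, the LIPA windows 20, 2 and 34, and the LIPE windows 24 and 3. Whether CpG content bears on the differences was not tested. The motif TATAA, searched on both strands, occurred in the G0S2 window and in 20.4% of all windows. The motif AGGTCA, searched likewise, occurred in the PNPLA2 window and in 13.8% of all. CACGTG was in none of the 10 windows available for ABHD5, G0S2, LIPA, LIPE and PNPLA2, and in 7.26% of all windows. These matches describe letters in a window, and no binding or histone mark was measured here.

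Values are deposited log2 expression values, differences are KO minus WT, and a probe set was called where limma's adjusted p over all 54613 probe sets was under 0.05. Arrays correlated at 0.994 within KO, at 0.992 within WT and at 0.985 to 0.989 between groups. KDM6B transcript was lower in KO on all of its 5 probe sets, by differences of -0.40 to -0.21, and none was called. The brightest of these read 7.95 and 8.14 in KO 1 and KO 2, against 8.46 and 8.27 in WT 1 and WT 2. An edit that alters the protein need not change the transcript level, and neither the edit nor the protein was tested here. The hepatocyte marker ALB read 13.82 and 13.96 in KO, against 13.90 and 13.70 in WT, and the adipocyte marker ADIPOQ read 3.03 and 2.67 in KO, against 2.81 and 2.81 in WT. The 8 hepatocyte markers averaged 12.40 and 12.37 in KO 1 and KO 2, against 12.64 and 12.58 in WT 1 and WT 2, and 2 of them, APOB and SERPINA1, were called lower. None of the 6 adipocyte, 5 measured macrophage or 6 fibroblast markers was called. The macrophage marker LYZ read 8.95 and 9.75 in KO, against 11.27 and 10.59 in WT, a difference of -1.58 (limma adjusted p = 0.069), and MARCO differed by 0.57 (adjusted p = 0.161), both without overlap between groups. The other 3 macrophage markers, CD14, CD163 and PTPRC, differed by -0.01 to 0.08, and the part of these markers in the results was not tested. Over the whole array 1.27% of probe sets were called higher in KO and 1.63% lower, 2.91% in all.

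Among the 8 genes, G0S2, PNPLA3 and LIPA were lower in KO and MGLL was higher, while PNPLA2, ABHD5, LIPE and HILPDA had no called probe set. Of the 17 probe sets, 5 were called, 2 higher and 3 lower, where the background shares just given apply. KO and WT values did not overlap for 10 of the 17, against 40.5% of all probe sets. The median difference was 0.05 over the 17 probe sets, of which ABHD5 holds 4, and 0.01 over all probe sets. Over the 8 genes by their brightest probe set it had the opposite sign, -0.07, against 0.01 over all genes read so.

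**Figure D1:**
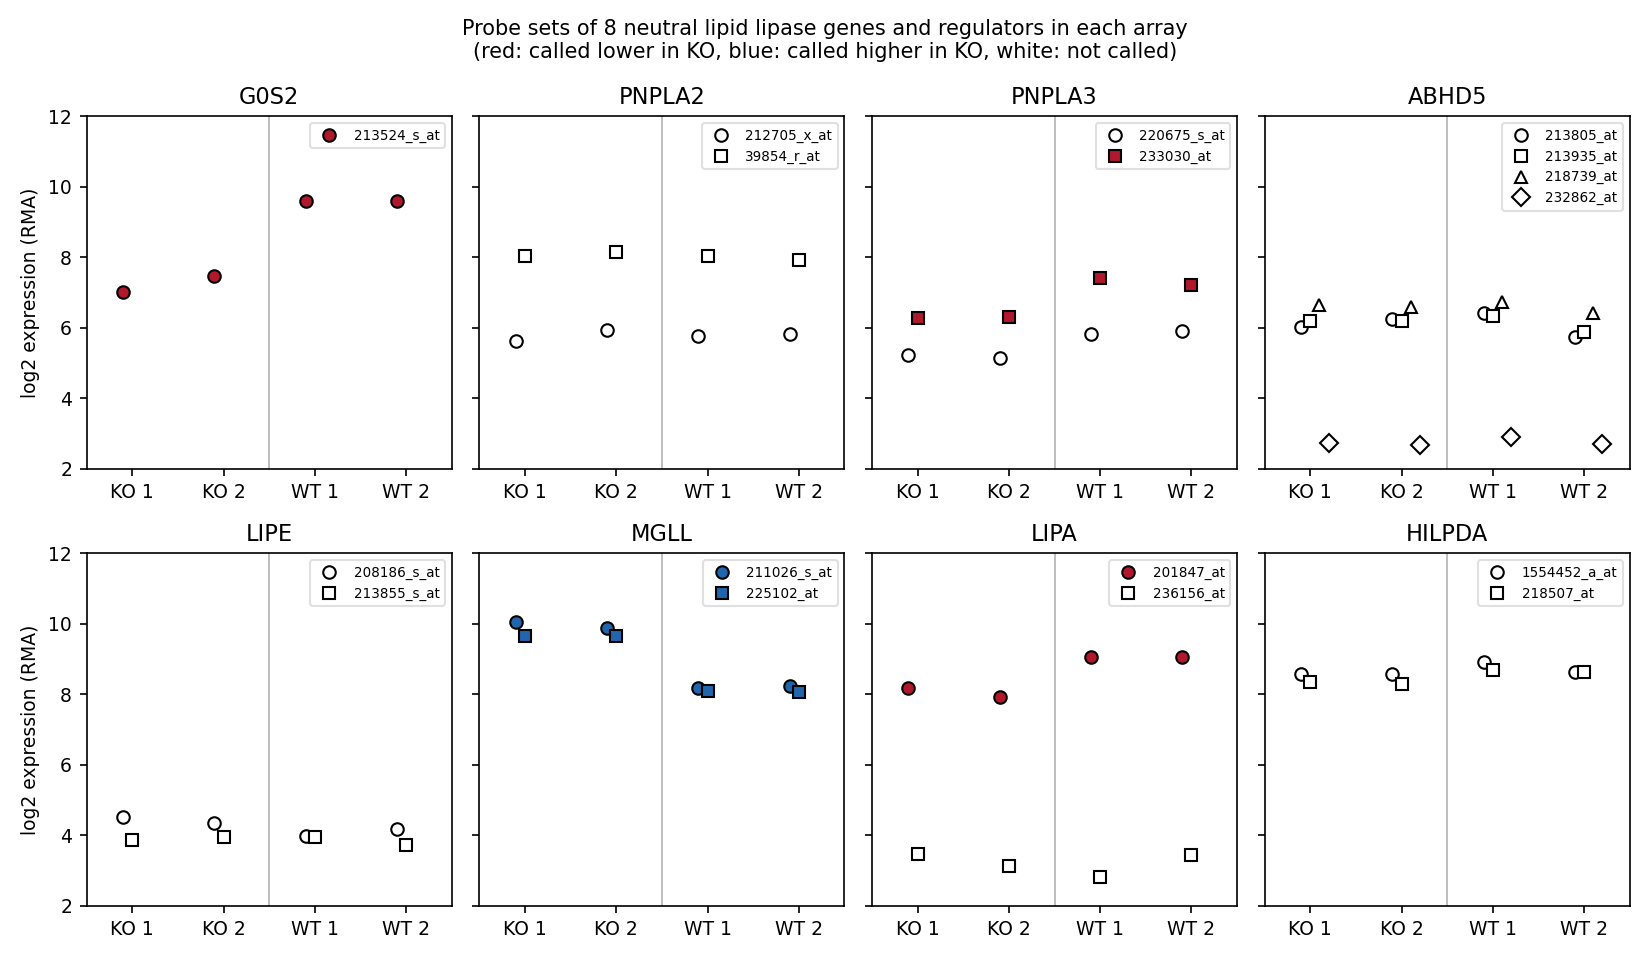
Log2 expression value (vertical axis) of each of the 17 probe sets in each array, with KO 1 and KO 2 left of WT 1 and WT 2 in every panel; each point is a single array and each symbol shape a probe set, with red for called lower in KO, blue for called higher and white for not called. G0S2 read 7.02 and 7.46 in KO, against 9.59 and 9.61 in WT, and both MGLL probe sets lay higher in KO.

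G0S2, the inhibitor of PNPLA2, was lower in KO. Its only probe set, 213524_s_at, read 7.02 and 7.46 in KO 1 and KO 2, against 9.59 and 9.61 in WT 1 and WT 2. The groups did not overlap, and the KO arrays lay further apart (SD 0.31, n = 2) than the WT arrays (SD 0.01, n = 2). The difference was -2.36 (SE 0.16, 95% interval -2.76 to -1.97), a 5.15-fold lower level in KO, and limma's adjusted p was 0.00396. Including G0S2 itself, 31 of the 54613 probe sets fell by as much or more. The suffix _s_at marks a probe set that can match more than a single transcript, and no other probe set for G0S2 was there to set beside it. The gene lies on chromosome 1 at 209675412 to 209676390 of GRCh38.p14.

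The fall of G0S2 was of like size when arrays were left out. Its call over all probe sets was lost without any of the 4 arrays, and was kept where a single probe set was fitted for each gene. With KO 1 left out the difference was -2.14 (limma, adjusted p = 0.160), and with KO 2 left out it was -2.58 (adjusted p = 0.137). With WT 1 or WT 2 left out it was -2.37 or -2.36, and the adjusted p was 0.068 in both. In the fit with a single probe set for each gene, the adjusted p with an array left out was 0.037 to 0.043.

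HILPDA, the hypoxia-inducible inhibitor of the same lipase, was slightly lower in KO and was not called. Probe set 218507_at read 8.35 and 8.31 in KO 1 and KO 2, against 8.68 and 8.63 in WT 1 and WT 2, a difference of -0.32 (SE 0.10, 95% interval -0.57 to -0.08, limma adjusted p = 0.190). Probe set 1554452_a_at read 8.57 in both KO arrays, against 8.90 and 8.65 in WT, a difference of -0.21 (95% interval -0.51 to 0.09, adjusted p = 0.554). Neither pair of groups overlapped, and both probe sets lay well above the array medians of 4.96 to 5.05. The intervals of both lay closer to 0 than that of G0S2 and did not meet it.

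PNPLA2, the lipase that both inhibitors act on, had no called difference. Its brighter probe set, 39854_r_at, read 8.03 and 8.15 in KO 1 and KO 2, against 8.03 and 7.93 in WT 1 and WT 2. The difference was 0.12 (SE 0.11, 95% interval -0.16 to 0.39, limma adjusted p = 0.781). The dimmer probe set, 212705_x_at, gave -0.02 (95% interval -0.42 to 0.39), and there KO 1 at 5.61 and KO 2 at 5.94 lay on either side of the WT arrays at 5.76 and 5.83. On the brighter probe set KO 1 and WT 1 read alike and KO 2 lay above both. Neither interval reached a 2-fold change. These 2 probe sets are of the _r_at and _x_at types, and no other for PNPLA2 was there to set beside them.

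ABHD5, the co-activator of PNPLA2, was likewise not called on any of its 4 probe sets. The brightest, 218739_at, read 6.66 and 6.58 in KO 1 and KO 2, against 6.72 and 6.41 in WT 1 and WT 2. Its difference was 0.06 (SE 0.15, 95% interval -0.31 to 0.43, limma adjusted p = 0.951). The KO values lay between the WT values, and the groups overlapped on all 4 probe sets. The other 3 differed by -0.10 to 0.07. Of these, 232862_at lay at or below the 25th percentile of every array and may carry no signal above background.

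PNPLA3, the PNPLA2 relative of liver droplets, was lower in KO on both of its probe sets and called on the brighter. That probe set, 233030_at, read 6.28 and 6.31 in KO 1 and KO 2, against 7.41 and 7.21 in WT 1 and WT 2. The difference was -1.01 (SE 0.13, 95% interval -1.33 to -0.69, limma adjusted p = 0.0213), 2.01-fold lower in KO. The KO arrays lay close together and the groups did not overlap. The second, 220675_s_at, read 5.21 and 5.14 in KO, against 5.81 and 5.91 in WT, a difference of -0.69 (SE 0.14, adjusted p = 0.0739) that missed the threshold. With any array left out, the difference of 233030_at was -1.11 to -0.91 and was not called (adjusted p 0.110 to 0.338).

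LIPE, which acts on diacylglycerol and is abundant in adipose tissue, read low in both groups. Probe set 208186_s_at read 4.51 and 4.34 in KO 1 and KO 2, against 3.98 and 4.17 in WT 1 and WT 2, a difference of 0.35 (SE 0.17, 95% interval -0.07 to 0.76, limma adjusted p = 0.448). Probe set 213855_s_at read 3.87 and 3.96 in KO, against 3.95 and 3.73 in WT, a difference of 0.08 (adjusted p = 0.935). The groups did not overlap on 208186_s_at and overlapped on 213855_s_at. All 8 of these values lay below the median of their array.

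MGLL, which completes the release of fatty acids from the glycerol backbone, rose in KO on both of its probe sets. Probe set 211026_s_at read 10.05 and 9.90 in KO 1 and KO 2, against 8.19 and 8.23 in WT 1 and WT 2. Probe set 225102_at read 9.66 in both KO arrays, against 8.10 and 8.05 in WT. The arrays of each group lay close together and far from the other group. The differences were 1.76 (SE 0.10, 95% interval 1.51 to 2.01, limma adjusted p = 0.00275) and 1.59 (SE 0.09, 95% interval 1.35 to 1.82, adjusted p = 0.0029), which are 3.39-fold and 3.0-fold higher levels in KO. MGLL thus went the opposite way to G0S2, PNPLA3 and LIPA. Over the array, 86 and 114 probe sets were higher by as much or more, of which 85 and 111 were called.

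The rise of MGLL varied little with the arrays, while its calls over all probe sets were lost without any of the 4. With an array left out, the differences were 1.68 to 1.84 on 211026_s_at and 1.56 to 1.61 on 225102_at. Neither was then called over all probe sets, with limma adjusted p of 0.057 and 0.056 without WT 1, 0.056 and 0.058 without WT 2, 0.201 and 0.203 without KO 1, and 0.160 and 0.189 without KO 2. With a single probe set fitted for each gene, 211026_s_at was called without WT 1 (adjusted p = 0.031), WT 2 (0.029) or KO 2 (0.046) and missed the threshold without KO 1 (0.060).

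LIPA, the acid lipase of the lysosome, was lower in KO on its brighter probe set. That probe set, 201847_at, read 8.18 and 7.93 in KO 1 and KO 2, against 9.05 in both WT arrays. The difference was -0.997 (SE 0.12, 95% interval -1.29 to -0.70, limma adjusted p = 0.0178), 2.0-fold lower in KO, and the groups did not overlap. Its second probe set, 236156_at, lay at or below the 25th percentile of every array and differed by 0.19 (SE 0.25, adjusted p = 0.871). With an array left out, 201847_at differed by -1.12 to -0.87 and was not called (adjusted p 0.145 to 0.305). It also missed the threshold without limma's intensity trend (adjusted p = 0.0519), and the mean of both probe sets differed by -0.41 (adjusted p = 0.240).

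**Figure D2:**
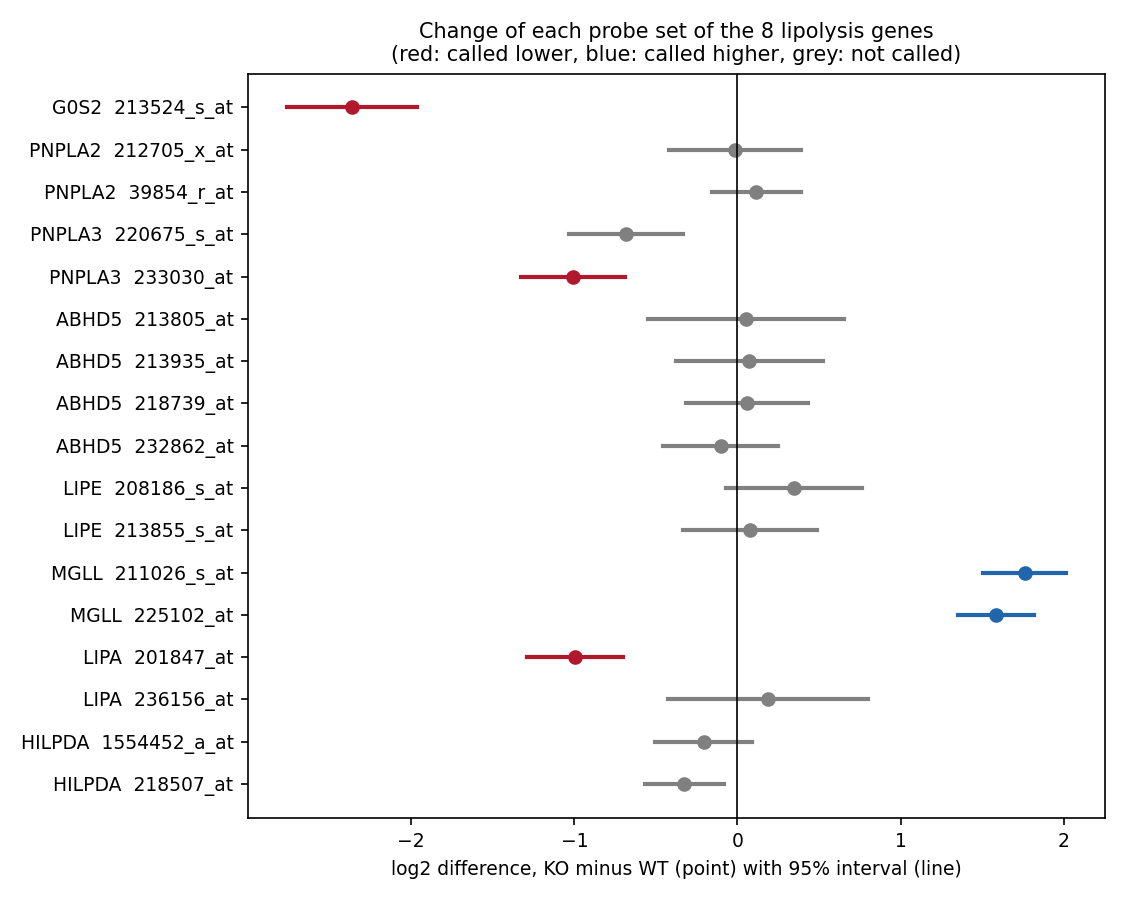
Log2 difference, KO minus WT (horizontal axis), of the 17 probe sets of the 8 genes, with 95% intervals of the limma fit as lines; red was called lower in KO, blue called higher and grey not called. The intervals of G0S2, PNPLA3 233030_at and LIPA 201847_at lie below 0 and those of both MGLL probe sets above it, while all PNPLA2, ABHD5 and LIPE intervals cross 0. The intervals of PNPLA3 220675_s_at and HILPDA 218507_at also lie below 0, but neither was called after adjustment.

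Genes around these enzymes were read by their brightest probe set, and of all 19775 genes read so 2.19% were called higher and 2.62% lower. Across 6 lists, 117 of 130 genes were measured, and 8 were called higher, 8 lower and 101 not called. Their median difference was 0.02, against 0.01 over all genes. The calls among the 117 genes were all lost over all probe sets with any array left out. Such a fit has a single array in a group, so the spread of that group cannot be estimated.

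Of the 23 measured hydrolases of acylglycerol and cholesteryl ester, 3 rose and 1 fell, with a list median of 0.09. AADAC and CES1, esterases of the hepatocyte endoplasmic reticulum that act on neutral lipid, were both higher in KO. AADAC read 10.28 and 10.34 in KO, against 9.15 and 9.20 in WT, a difference of 1.13 (SE 0.09, limma adjusted p = 0.0061). CES1 read 10.15 and 10.04 in KO, against 9.004 and 9.06 in WT, a difference of 1.06 (SE 0.10, adjusted p = 0.0089), and its probe set is of the _s_at type. LIPH, which makes lysophosphatidic acid, rose by 1.17 (adjusted p = 0.0259), whereas LIPG, the endothelial lipase that acts on high-density lipoprotein, fell by 1.003 (adjusted p = 0.0207). Both directions thus occur among these hydrolases, as among the lipases of the droplet. ABHD6, another monoacylglycerol hydrolase, differed by -0.01 and was not called.

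Of the 16 measured genes of droplet coat and assembly, 2 rose and 14 were not called, with a median of 0.15. CIDEC, which promotes fusion of droplets, read 9.12 and 9.02 in KO, against 8.04 and 8.29 in WT, a difference of 0.91 (SE 0.12, limma adjusted p = 0.0244). PLIN2, the main coat protein of hepatocyte droplets, read 11.84 and 11.69 in KO, against 11.26 in both WT arrays, a difference of 0.50 (SE 0.09, adjusted p = 0.0496). The call of PLIN2 is close to the threshold, and its second, dim probe set differed by 0.20 and was not called. PLIN5, a coat protein that binds both PNPLA2 and ABHD5, differed by -0.02.

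Among 20 measured genes of hormone and kinase control, INSR, the insulin receptor, rose and ADRB1, a beta-adrenergic receptor, fell. INSR differed by 0.75 (SE 0.10, limma adjusted p = 0.0259), with 3 of its 5 probe sets called. ADRB1 differed by -1.21 (SE 0.21, adjusted p = 0.0463), and its other probe sets, at 0.40 and -0.18, were not called. The other 18 were not called, and the median was 0.04.

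None of the 18 measured lysosome genes beside LIPA was called, and their median difference was -0.01. The nearest to the threshold were NPC1, a cholesterol exporter of the lysosome that differed by -0.51, and CTSD, a lysosomal protease that differed by -0.66, each at a limma adjusted p of 0.059; these 2 were chosen after their values were seen.

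Among 20 measured genes for the fate of the released fatty acid, glycerol and acylglycerols, 1 rose and 1 fell, with a median of -0.12. ACSL1, the major long-chain acyl-CoA synthetase of liver, read 5.81 and 6.34 in KO, against 9.23 and 8.85 in WT. The difference was -2.96 (SE 0.22, limma adjusted p = 0.0050), larger in size than that of G0S2, and its second probe set fell by 2.21. ACSL5, another acyl-CoA synthetase, rose by 0.80 (adjusted p = 0.0462), with a second probe set at 0.51 that was not called. The triacylglycerol synthases DGAT1 and DGAT2 differed by -0.47 and -0.18 and were not called.

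Of 20 measured transcription factors reported to act on genes such as these, 1 rose and 5 fell, with a median of -0.16. PPARG, a fatty acid receptor that drives lipid storage, read 9.55 and 9.41 in KO, against 8.61 and 8.34 in WT, a difference of 1.01 (SE 0.13, limma adjusted p = 0.0200). KLF15, a regulator of fasting metabolism, read 6.39 and 7.01 in KO, against 8.90 and 8.41 in WT, a difference of -1.95 (SE 0.25, adjusted p = 0.0213), while its dimmer probe set differed by -0.28. TFE3, a factor of lysosomal genes, read 8.24 and 8.35 in KO, against 9.92 and 9.51 in WT, a difference of -1.42 (adjusted p = 0.0131), with 2 of 4 probe sets called. MLXIPL, the carbohydrate-responsive factor also named ChREBP, fell by 0.91, and the immediate early factor EGR1 fell by 0.92. CEBPB, a factor of liver and fat cells that is outside the naming rule and was chosen after its value was seen, fell by 0.59. PPARA, the fatty acid receptor of fasting liver, was not called.

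**Figure D3:**
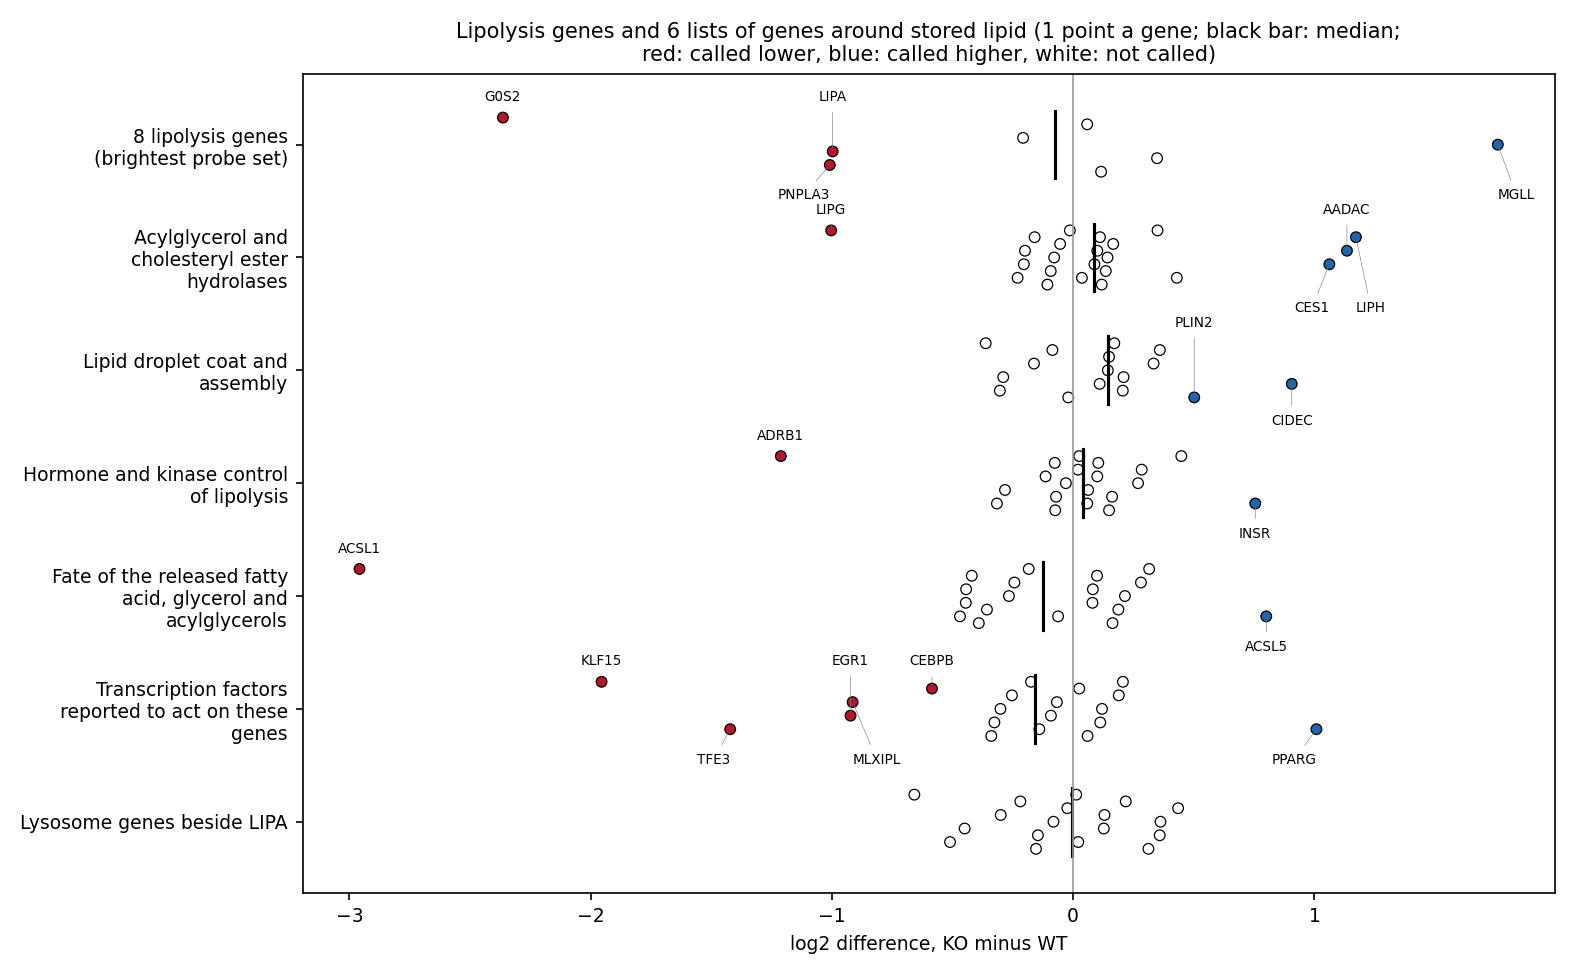
Log2 difference, KO minus WT (horizontal axis), of the 8 lipolysis genes and of the genes of 6 lists (rows), 1 point a gene by its brightest probe set; black bars are medians, red points were called lower in KO, blue points higher and white points not called. G0S2, at -2.36, and ACSL1, at -2.96, lie furthest to the left, MGLL, at 1.76, furthest to the right, and the row medians lie between -0.16 and 0.15.

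The genes next to each of the 8 on its chromosome were examined, 5 measured genes on either side in RefSeq order. Of these 80 neighbours, 0 were called higher and 1 lower by limma, with a median difference of 0.06. Of all genes read by their brightest probe set, 2.19% were called higher and 2.62% lower. The neighbours of G0S2 differed by -0.66 to 0.52 with a median of -0.16, and none was as low as G0S2 itself. Those of PNPLA3 differed by -0.24 to 0.48. The called neighbour was RUVBL1, a subunit of chromatin remodelling complexes near MGLL on chromosome 3, which averaged 9.42 in KO and 9.94 in WT, a difference of -0.52 (adjusted p = 0.0488) opposite in sign to that of MGLL. The call of RUVBL1 was lost in 12 of 18 alternative fits, where differences over all 18 were -0.56 to -0.47. Among the 12 was the fit with each array centred on its median (limma adjusted p = 0.064).

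LIPA lies on chromosome 10, and its neighbours differed by -0.47 to 1.21 with a median of 0.15 and no call. STAMBPL1, a deubiquitinase 6 places and 333 kb from LIPA, was lower in KO: its probe set 227607_at read 6.55 and 6.24 in KO, against 8.89 and 8.98 in WT, a difference of -2.54 (limma adjusted p = 0.00244). A second STAMBPL1 probe set, 227606_s_at, fell by 2.39, while 220803_at and 231891_at, both dim, differed by -0.03 and 0.12 and were not called. The 10 genes beside STAMBPL1 had a median of 0.14 and no call, and 3 of them were lower in KO. TFE3, by contrast with the 8 genes, had 5 of its 10 neighbours called lower, against 2.62% of all genes. Its neighbours lie on chromosome X and had a median of -0.81. Whether a shift of that region bears on the fall of TFE3 was not tested.

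**Figure D4:**
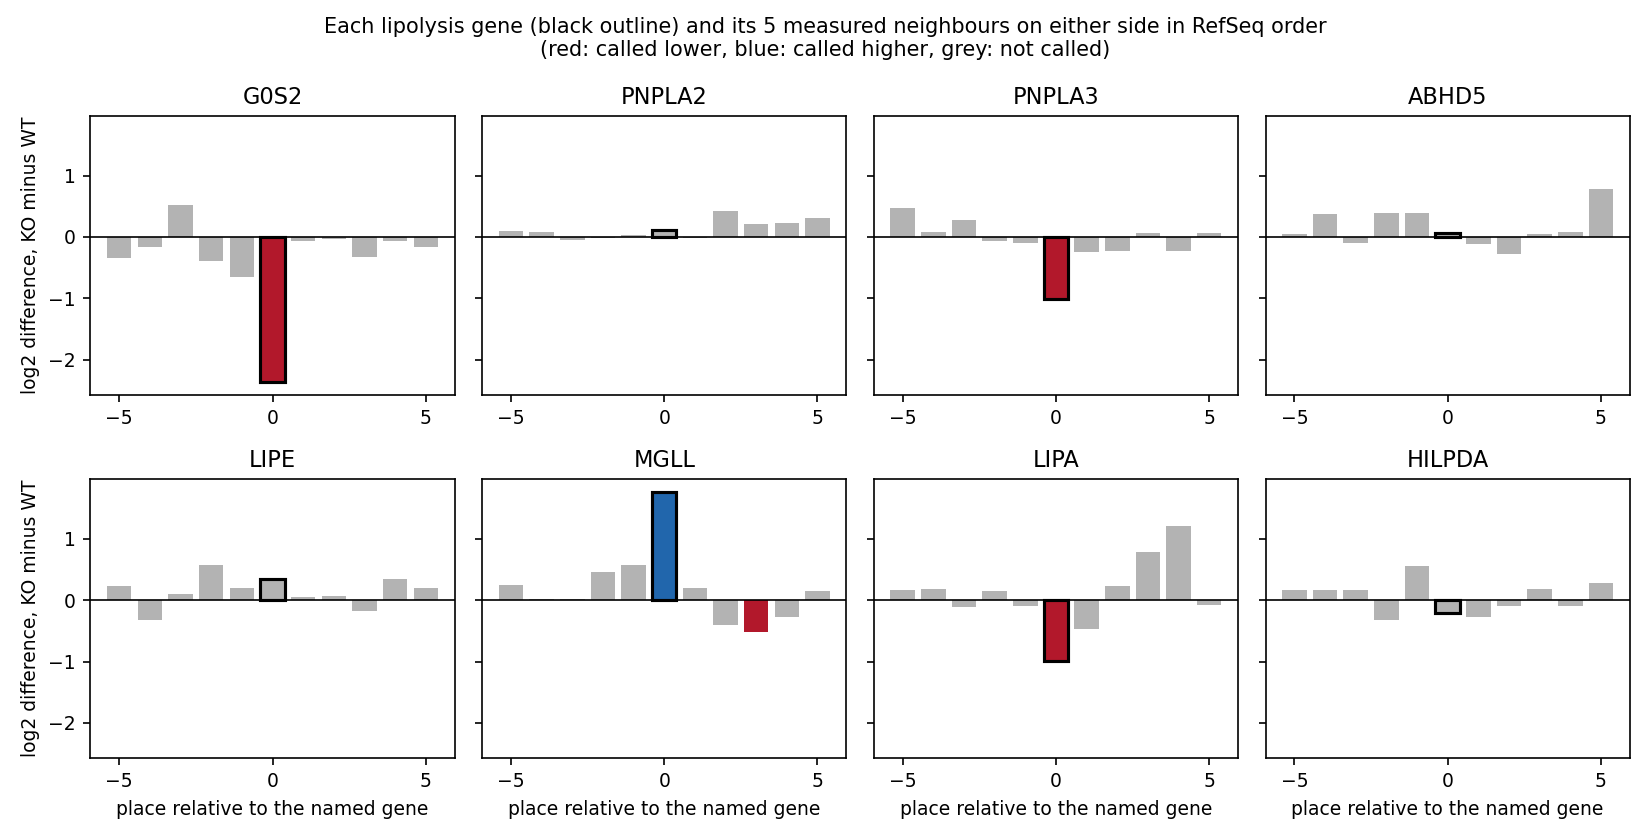
Log2 difference, KO minus WT (vertical axis), of each of the 8 genes, outlined in black at place 0, and of the 5 measured genes on either side (horizontal axis, place in RefSeq order), 1 bar a gene, with red for called lower, blue for called higher and grey for not called. The neighbours of G0S2 lie between -0.66 and 0.52, and 1 of the 80 neighbours, beside MGLL, was called. Over all genes 2.19% were called higher and 2.62% lower.

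The genes whose pattern over the 4 arrays was most like that of G0S2 were found by the Euclidean distance between log2 values centred on each probe set's mean, which puts genes of like difference first. In order, they were ASGR1, a subunit of the hepatic asialoglycoprotein receptor (distance 0.18), STAMBPL1 (0.20), the zinc-finger factor ZIC2 (0.28), the tRNA-editing enzyme DTD2 (0.28) and the splicing regulator NOVA1 (0.31). ASGR1 read 6.95 and 7.47 in KO, against 9.72 and 9.50 in WT. It lies on chromosome 17, as does the targeted KDM6B. The 10 genes beside ASGR1 had a median difference of -0.40 and a lowest of -1.11, and none was higher in KO. Those beside KDM6B had a median of 0.004, with 5 lower in KO and 1 called lower. How far ASGR1 lies from KDM6B was not examined. Whether the place of ASGR1 bears on its fall was not tested. The differences of the 5 genes were -2.41 to -2.10. Beside ASGR1 on chromosome 17, 3 of 10 neighbours were called lower, and beside DTD2 on chromosome 14, 4 of 10 were. Beside ZIC2 1 of 10 was called lower, and beside STAMBPL1 and NOVA1 0 of 10 were called. Over all genes, 2.19% were called higher and 2.62% lower.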

How the data were processed

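Per the labels' protocols, total RNA from 2 KO and 2 WT samples was treated with DNase and amplified for Affymetrix Human Genome U133 Plus 2.0 arrays with a kit that works from the 3′ end of transcripts. The authors' deposited values are log2 expression values, made with RMA and the affy package per the submitters' processing notes, which as listed carry no versions. RMA makes array distributions alike, which hides any change common to the bulk of genes. Probe sets were named through the platform annotation: 41091 had 1 symbol, 1801 several and 11721 none.

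KO was compared with WT over all 54613 probe sets with limma 3.58.1 in R 4.3.3 (lmFit, eBayes with an intensity trend, 2 residual and 3.89 prior degrees of freedom), with no filter, two-sided, with Benjamini-Hochberg adjustment and calls at 0.05. An exact permutation test was not run, since 2 against 2 arrays reach p = 0.333 at best. No detection calls were used. Precision is limited by there being 4 arrays. The steps were tested on simulated data with independent noise in each array, so that test does not cover variation shared between arrays.

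The genes, the lists and the naming rule were chosen with earlier results of these data known. The rule names all 8 genes, called genes of the 6 lists (up to 4 a list in each direction), KDM6B, the 5 genes most like G0S2, and called neighbours; uncalled list genes that are named were picked afterwards. The marker lists cover hepatocytes, adipocytes, macrophages and fibroblasts. Replicate numbers come from the sample titles. The differences between replicates 1 and 2 correlated at -0.50 between KO and WT, so the numbers were not taken as pairs. Across groups, WT 1 with KO 2 and WT 2 with KO 1 correlated at 0.989. Arrays of the same number correlated at 0.985 (replicate 1) and 0.987 (replicate 2). The arrays may thus not be independent. Whether the numbers are crossed or a batch runs across the groups was not tested. Start-site sequences are from RefSeq (GRCh38.p14). Alternatives changed the spread estimate, normalization, filters, probe sets, arrays and block. The crossed numbers, and the arrays left out with a single probe set fitted for each gene, were chosen after seeing the data. Figures were drawn with Python 3.11.15 and matplotlib 3.10.9.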

Additional observations from a re-analysis of the deposited data

How the results depend on the processing

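Over the array limma called 1587 probe sets as reported, 641 without the intensity trend, 831 without _s_at and _x_at probe sets and 2954 at an adjusted p under 0.10. With an array left out it called 0 to 82: 82 without WT 1, 55 without WT 2, and 0 without KO 1 or KO 2, where 4670 and 4947 had an unadjusted p under 0.05. With only the brightest probe set of each gene fitted, leaving out WT 1, WT 2, KO 1 or KO 2 gave 192, 182, 37 and 43. Among the 17 probe sets of the 8 genes, 5 were called as reported, 3 of 11 without _s_at and _x_at types (a fit without G0S2), and 3 of 8 with the mean over each gene's probe sets. None was called over all probe sets with any array left out. With the brightest probe sets only and an array left out, fewer were called than as reported. Among the genes around the lipases, 16 were called as reported, and 7, 8 and 0 without the trend, without those types and with any array left out, and 3, 3, 0 and 1 with the brightest probe sets and WT 1, WT 2, KO 1 or KO 2 left out. Leaving out an array leaves a group of 1, whose spread is taken to equal that of the other group, and makes the fit smaller.

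With the replicate block, limma called 77 probe sets over the array, 1 of the 17 (G0S2, adjusted p = 0.0376) and 0 of the 117 genes. In that fit 22 of the 117 genes had an unadjusted p under 0.05, against 4762 of all 54613 probe sets. The differences of 1.76 and 1.59 for MGLL, -0.997 for LIPA and -1.01 for PNPLA3 then had adjusted p of 0.0505, 0.0541, 0.138 and 0.163. The crossed numbers gave 4349, 6 and 27 calls; this pairing was chosen after seeing the data.

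LIPA lost its call at -0.997 without the trend and at -0.41 with the mean over its probe sets. With an array left out, differences were -1.12 to -0.87 for LIPA, -1.11 to -0.91 for PNPLA3, -2.58 to -2.14 for G0S2, and 1.68 to 1.84 and 1.56 to 1.61 for MGLL. With the brightest probe sets only, these were not called for LIPA (-0.998, -0.995, -1.12 and -0.87 without WT 1, WT 2, KO 1 and KO 2), PNPLA3 (-0.91, -1.11, -0.99 and -1.02), or MGLL without KO 1 (1.68). The second PNPLA3 probe set was called among the brighter probe sets alone (adjusted p = 0.0432) and with crossed numbers (0.0416). Directions turned only for uncalled probe sets and only on leaving out an array: PNPLA2 212705_x_at ranged from -0.18 to 0.15, ABHD5 213805_at from -0.29 to 0.39, 213935_at from -0.16 to 0.30 and 218739_at from -0.10 to 0.21, LIPE 213855_s_at from -0.034 to 0.19, and LIPA 236156_at from -0.12 to 0.50. Robust estimates, repeated quantile normalization, median centring and the filter on dim probe sets ended no call among the 8 genes. Where not stated, the cause of a change was not tested.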
